A study of Mus musculus with 66 samples.

Results

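The data describe 9 genes that encode enzymes of purine nucleotide synthesis, chosen by their symbols (Ppat, Gart, Paics, Adsl, Atic, Gmps, Impdh1, Impdh2 and Adss) among the 11513 genes of each deposited table. All 9 were present and all 9 passed the filter on low values in every table. RNA came from 3T9-MycER cells, mouse embryonic fibroblasts (E13.5) with floxed c-myc alleles (c-mycflox/flox) that carry a retroviral MycER construct, in which the transcription factor Myc is fused to the hormone-binding part of the oestrogen receptor and is switched on by 4-hydroxytamoxifen (OHT). Cells were taken at 0 min or after 400 nM OHT for 10, 20 or 30 min or 1, 1.5, 2, 4, 8, 12 or 16 h, with 3 libraries of newly made RNA (labelled for 10 min with 4-thiouridine) and 3 of total RNA at each of the 11 times, or 66 libraries in all. All groups share the construct and the floxed alleles, and the design has no time course without OHT, so time in culture or with the drug and MycER activity cannot be told apart. Whether the replicates are separate cultures is not given in the sources used here, and the p-values then cover only variation among these libraries, part or all of which may be technical.

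De novo purine synthesis builds the purine ring stepwise on phosphoribosyl pyrophosphate (PRPP). Ppat encodes the amidotransferase of the committed step, Gart and Paics encode enzymes with several activities in the middle of the pathway, Adsl encodes a lyase that acts both there and in AMP synthesis, and Atic encodes the enzyme that closes the ring to give IMP. From IMP, Adss opens the branch to AMP, while Impdh1 and Impdh2 (a pair of IMP dehydrogenase genes) followed by Gmps form the branch to GMP. Dividing cells use the pathway to supply nucleotides for RNA and DNA, and Myc is known as an activator of many genes of nucleotide synthesis, often through CACGTG sequences called E-boxes.

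Intron and exon values were deposited apart. Intron signal in labelled RNA comes largely from transcripts not yet spliced, exon signal in labelled RNA from all newly made RNA, and total RNA from the whole pool. In labelled RNA the deposited values of a library summed to between 11619390 and 14118146 over exons and between 31279341 and 39258946 over introns. In total RNA the sums lay between 46498084 and 52716124 over exons and between 10649913 and 13008655 over introns. These are rescaled values, so the read depth is unknown. Of the fibroblast markers, 7 of 8 were in the table, with a summed level of 2961 to 5416 RPKM over the total RNA libraries (Vim 2220 and Col1a1 167 RPKM at 0 min). Of 10 markers of epithelium, endothelium, blood and muscle, 3 were in the table, with a summed level of 2.18 to 3.45 RPKM, nearly all of it Cd68. In bulk RNA, fewer cells of a type and less RNA per cell cannot be told apart, and with no spike-in described each change is relative to the other genes measured in the same library.

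Ppat (Entrez 231327) and Paics (Entrez 67054) are head-to-head neighbours. In the GENCODE M1 annotation of mm9, Ppat lies on chromosome 5 from 77342274 to 77380603 on the minus strand and Paics on chromosome 5 from 77380332 to 77396534 on the plus strand, so that their 5′ ends overlap by 272 bases. Gart (Entrez 14450) lies on chromosome 16 from 91621431 to 91647197, Adsl (Entrez 11564) on chromosome 15 from 80778920 to 80801377, Atic (Entrez 108147) on chromosome 1 from 71603724 to 71626205 and Gmps (Entrez 229363) on chromosome 3 from 63780028 to 63826501. Impdh1 (Entrez 23917) lies on chromosome 6 from 29150434 to 29166364, Impdh2 (Entrez 23918) on chromosome 9 from 108462774 to 108467895 and Adss (Entrez 11566) on chromosome 1 from 179693093 to 179726642. Ppat, Gart and Adss also overlap an annotated noncoding gene or pseudogene on the other strand, by 19391, 2676 and 610 bases, and Adsl a pseudogene on its own strand by 395 bases. Whether counting used strand is not given, so reads in these overlaps cannot be assigned to one gene. Alignment of the member transcripts to mm9 found 7 further loci that cover at least 50% of the Paics transcript, 2 for Atic and 1 for Impdh2, with identities up to 95.2%, 87.5% and 99.8%. How multiply mapping reads were counted is not given, so the exon values of these 3 genes carry that uncertainty.

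Promoter windows (RefSeq, GRCm38.p6) from 250 bases before to 50 bases after the annotated start were found for all 9 genes, with 2 windows for Impdh1. The E-box letters CACGTG, which read the same on both strands, occurred once each in the windows of Paics, Atic and Impdh2 and in none of the windows of Ppat, Gart, Adsl, Gmps, Impdh1 or Adss. Of all 32851 windows of this length, 7.15% held CACGTG. The related letters CACGCG, searched on both strands (CGCGTG on the other), were in 9.27% of all windows and in none of the 9 genes' windows. The 3 E-boxes are shown with 12 bases on either side, with CACGTG in capitals, so that their surroundings can be compared.
Paics, chr5:76951087-76951116, plus strand: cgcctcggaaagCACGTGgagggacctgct
Atic, chr1:71557137-71557166, plus strand: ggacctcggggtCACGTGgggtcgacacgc
Impdh2, chr9:108560314-108560343, plus strand: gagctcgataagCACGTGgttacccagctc
The match near Paics begins 203 bases before the annotated Paics start and, in mm9 (chromosome 5, 77380124 to 77380129), lies inside a noncoding part of an exon of all 3 annotated Ppat transcripts, so it is upstream of one gene of the pair and within the other. The match near Atic begins 7 bases before the start and that near Impdh2 110 bases before it. A match is a description of letters and no evidence of binding, and these windows hold only a small part of each gene's surroundings.

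The levels of the genes before OHT spanned a wide range. In total exons at 0 min, Impdh2 had the highest level (262, 217 and 243 RPKM in the 3 libraries), followed by Paics (192, 170 and 180 RPKM). Adsl, Gmps, Gart, Atic and Adss lay between 41.8 and 62.6 RPKM, Ppat at 33.5 to 39.0 RPKM and Impdh1 at 6.48 to 7.38 RPKM, near the median gene (7.09 RPKM). In this order only Adsl with Gmps, and Gart with Atic and Adss, had overlapping libraries, so the neighbours in those places are not separated beyond their spread. Labelled exons gave the same top pair, Impdh2 at 41.5 ± 4.81 and Paics at 35.7 ± 2.59 RPKM (mean ± SD, n = 3), whose libraries overlapped, and again Impdh1 last at 2.99 ± 0.484. The ratio of labelled to total RPKM of Impdh2 stood at the 1.98th percentile of all genes, that of Paics at the 5.41st and that of Impdh1 at the 52.4th. The labelled and total tables were scaled separately, so only the order of such ratios can be read. By 16 h Ppat had moved from rank 8 to rank 5 of the 9 in total exons (62.0 ± 3.92 RPKM), and Impdh2 (295 ± 14.6) and Paics (167 ± 2.52) remained the highest.

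**Figure D1:**
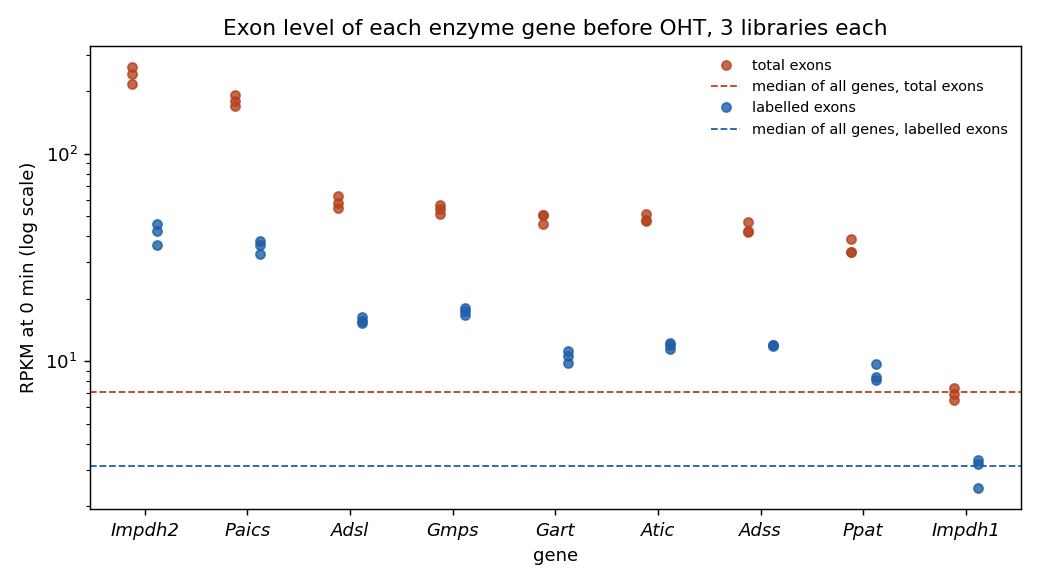
RPKM of each gene at 0 min on a log axis, with 1 point per library for total (red) and labelled (blue) exons and dashed lines at the median of all genes. Impdh2 and Paics stand above the other 7 genes, and Impdh1 lies near the median gene in both RNA kinds.

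The first question was how soon transcription of the 9 genes changed after MycER activation. All 9 rose in labelled introns at 20 min (limma, adjusted p under 0.05), a time chosen after the values were seen, where 16.7% of all 11506 genes rose and 13.3% fell. Ppat, the gene of the committed step, went furthest: its scaled labelled intron values were 6225, 5882 and 5463 at 0 min and 11789, 11778 and 12979 at 20 min. The groups did not overlap, and the log2 change was 1.06 ± 0.07 (standard error, as for all changes that follow, adjusted p = 6.04e-14), or 2.08-fold. At 10 min Ppat introns already stood at 6636, 8114 and 7989, above all 0 min libraries (0.37 ± 0.07). Labelled introns of Paics at 10 min (lowest 3827) also lay above all its 0 min libraries (highest 3644).

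The other genes rose less at 20 min. Impdh1 introns changed by 0.65 ± 0.09, Adss by 0.40 ± 0.08, Adsl by 0.40 ± 0.06, Gart by 0.36 ± 0.06, Paics by 0.35 ± 0.07, Impdh2 by 0.34 ± 0.12, Gmps by 0.29 ± 0.07 and Atic by 0.23 ± 0.08, and for each of them the 3 libraries at 20 min lay above all 3 at 0 min. The calls of Atic and Impdh2 ended under 3 kinds of alternative, which left 7 genes up: library-sum scaling (adjusted p = 0.079 and 0.103), no further scaling (0.0747 and 0.0522) and RPKM values (0.0684 to 0.107). They also ended without single libraries, so that 7 or 8 genes were up whichever library was left out. For Atic this was without replicate 3 at 20 min or replicate 1 or 3 at 0 min (0.0509 to 0.185). For Impdh2 it was without any replicate at 20 min or replicate 2 or 3 at 0 min (0.054 to 0.146).

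At 30 min, 1 h and 4 h, 7 of 9 genes were up and 0 down in labelled introns. The background was 22.2% of all genes up and 20% down at 30 min, 24.8% and 24.4% at 1 h, and 24.8% and 24.9% at 4 h. Paics and Impdh2 were the genes not called at 30 min (0.17 ± 0.07 with adjusted p = 0.0524, and 0.30 ± 0.12 with 0.0501) and at 1 h (-0.08 ± 0.07 and 0.09 ± 0.12). At 30 min both were called, making 9 up, with a minimum of 50 in 3 libraries (0.049 and 0.0481) and with the replicate block (0.0381 and 0.0498). Paics alone of the pair was also called with no further scaling (0.0417), on both RPKM scales (0.0417 and 0.0412) and without replicate 1 or 2 at 0 min (0.029 and 0.0468), and Impdh2 alone with only the 2 times compared (0.0198). At 4 h Paics (0.03 ± 0.07) and Adss (0.15 ± 0.08) were not called. At 16 h, 4 of 9 were up, Ppat, Gart, Adsl and Gmps, and 0 down, against 25.1% up and 23% down of all genes. Library-sum scaling gave 6 up at 16 h, with Paics (adjusted p = 0.00646) and Atic (0.0192) added, and 6 at 30 min.

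Some of these intron calls did not hold. That of Atic ended at 30 min with library-sum scaling (0.261), which moved the median of all genes by -0.10, with no further scaling, on the RPKM scale, without replicate 3 at 30 min (0.173) and without replicate 1 or 3 at 0 min (0.0539 and 0.19). At 1 h it ended on the RPKM scale (0.0645 and 0.0679). The call of Impdh2 at 4 h ended without replicate 1 or 2 at 4 h or replicate 2 at 0 min (0.0505, 0.0852 and 0.0862), and that of Gart at 16 h with only the 2 times compared (0.0938) and without replicate 3 at 16 h (0.118) or at 0 min (0.216).

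**Figure D2:**
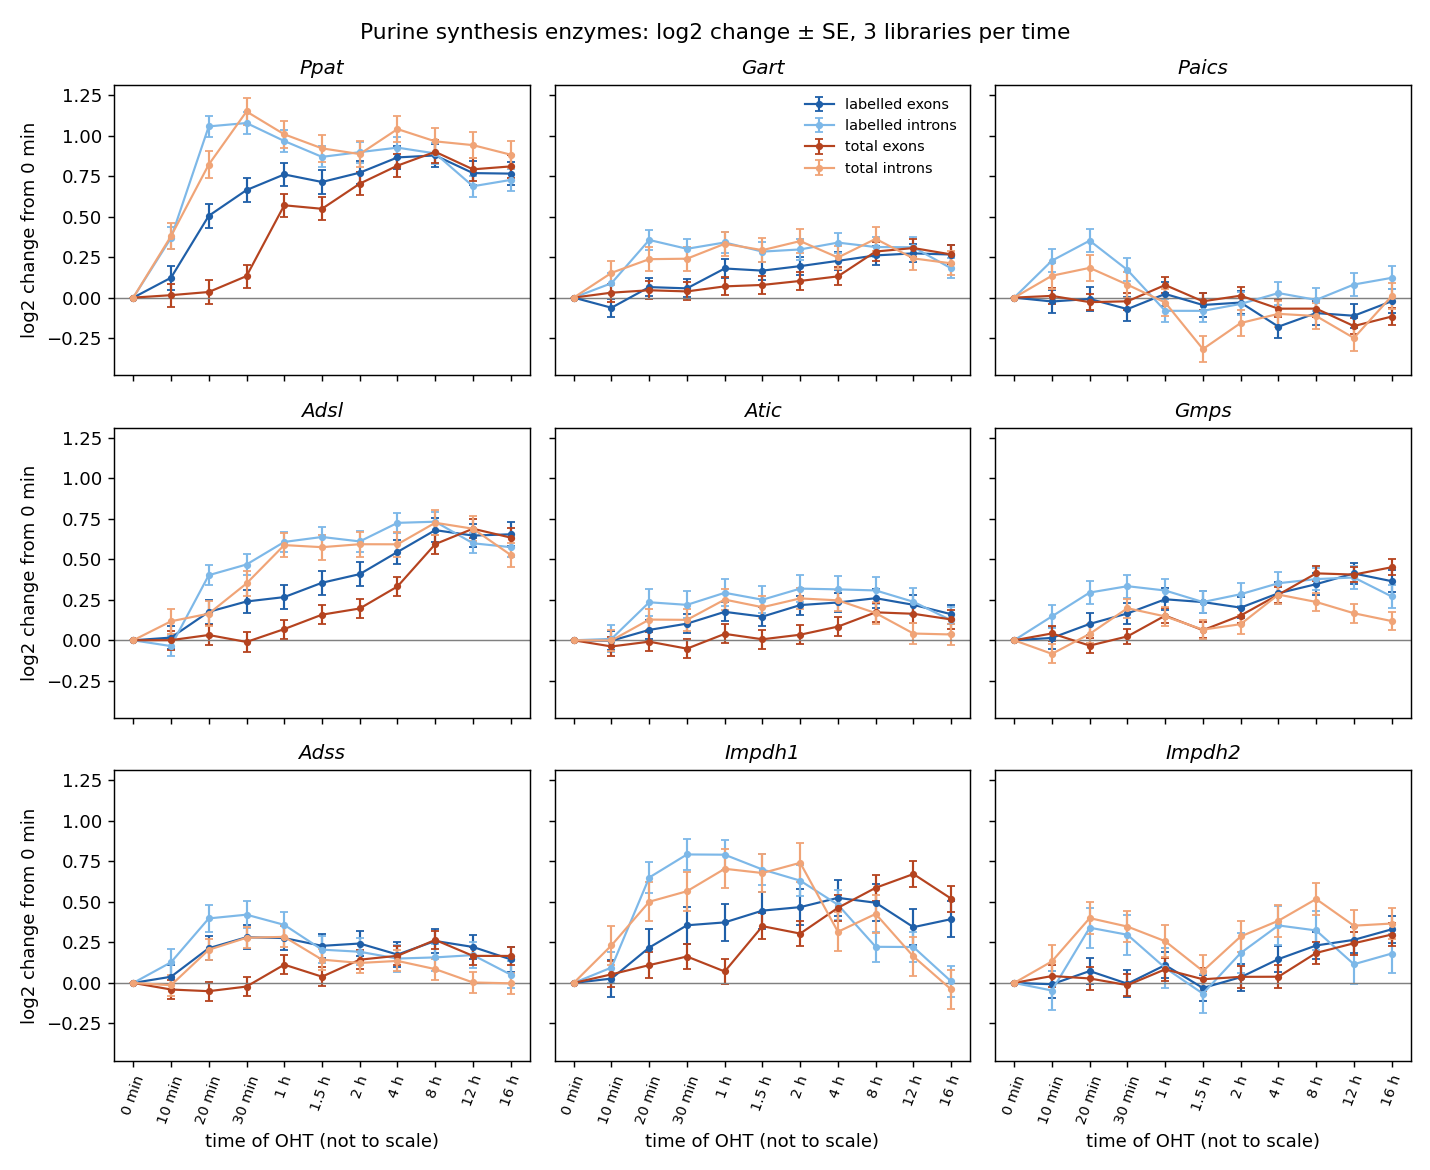
Log2 change from 0 min (± standard error, 3 libraries per time) of each gene in labelled exons, labelled introns, total exons and total introns, against the time of OHT as evenly spaced categories. Ppat rises most, and intron changes precede those of total exons in most genes. The exon lines of Paics stay near or below 0 after a brief rise of its labelled introns.

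Exons of newly made RNA followed. At 30 min Ppat, Adsl, Impdh1 and Adss, or 4 of 9, rose and 0 fell, against 8.04% of 11488 genes up and 3.63% down. At 1 h 7 of 9 rose and 0 fell, against 13.5% and 9.77%, and the median change of the 9 was 0.25, against 0.01 over all genes. Paics (0.02 ± 0.07) and Impdh2 (0.11 ± 0.08) did not pass the test. Labelled exons of Ppat were 1875, 1628 and 1546 at 0 min and 2974, 2746 and 2809 at 1 h. The 1 h libraries all lay above those at 0 min, by a log2 change of 0.76 ± 0.07 (adjusted p = 5.94e-10), which is 1.69-fold. The calls of Ppat held in every alternative and without every single library at each time tested in labelled exons.

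The other 6 called at 1 h had smaller changes. Impdh1 rose by 0.37 ± 0.11, Adss by 0.28 ± 0.07, Adsl by 0.27 ± 0.07, Gmps by 0.25 ± 0.07, Gart by 0.18 ± 0.06 and Atic by 0.18 ± 0.06, and in each the 3 libraries at 1 h lay above those at 0 min. The calls of Gart, Atic and Impdh1 ended without further scaling (adjusted p = 0.14, 0.101 and 0.0512) and on the RPKM scale, leaving 4 of 9 up. Those of Gart and Atic also ended with library-sum scaling (0.0797 and 0.131) and with only the 2 times compared (0.0611 and 0.0633), leaving 5. All 3 ended without single libraries: Gart without replicate 1 or 3 at 1 h or replicate 2 at 0 min (0.0547 to 0.071), Atic without replicate 1 or 2 at 1 h or replicate 2 or 3 at 0 min (0.0583 to 0.142), and Impdh1 without replicate 1 at 1 h or replicate 2 at 0 min (0.0751 and 0.129). At 30 min only the call of Ppat held without further scaling and on the RPKM scale. That of Adsl also ended with library-sum scaling (0.0727), and that of Impdh1 with no variance trend (0.0526). There the call of Adsl also ended without replicate 2 or 3 at 30 min or any replicate at 0 min (0.0543 to 0.0924), that of Impdh1 without any replicate at 30 min or replicate 2 or 3 at 0 min (0.0633 to 0.228), and that of Adss without replicate 1 at 30 min or replicate 3 at 0 min (0.0625 and 0.0599).

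At 4 h, 6 of 9 rose (Ppat, Gart, Adsl, Atic, Gmps and Impdh1) and 1, Paics, fell, against 19.5% up and 18.7% down of all genes. At 16 h, 7 of 9 rose and 0 fell, against 22.5% up and 21.7% down, with Paics (-0.02 ± 0.07) and Adss (0.15 ± 0.07) not called. The median change of the 9 at 16 h was 0.33, against 0.01 over all genes. The call of Gart at 4 h ended without further scaling (0.073) and on the RPKM scale. That of Atic at 16 h ended without further scaling (0.0767), on the RPKM scale and with only the 2 times compared (0.0536). The Atic call also ended without replicate 1 or 3 at 16 h or replicate 3 at 0 min (0.0544 to 0.0727). That of Impdh1 at 16 h ended without replicate 2 at 0 min (0.0597).

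Whether early changes grew was tested as 16 h against 1 h in labelled exons. Adsl and Impdh2, or 2 of 9, were higher at 16 h than at 1 h and 0 were lower, against 17.6% up and 19.5% down of all genes. The count of members up was near the share of all genes, so it shows no later growth particular to the 9. The median change of the 9 over this interval was 0.02 in labelled exons, against 0.01 over all genes. It was 0.21 in total exons, but -0.16 in labelled introns and -0.12 in total introns. For total exons and for introns the median and the share called of all genes were not counted, so no count of members is given. Adsl, the lyase of both stretches of the pathway, had labelled exon values of 1528, 1554 and 1523 at 0 min, 1820, 1943 and 1782 at 1 h and 2518, 2362 and 2373 at 16 h. The 3 groups did not overlap and rose in steps, with a change from 1 h to 16 h of 0.39 ± 0.07 (adjusted p = 5.98e-05). Impdh2 had values of 3199, 2856 and 3298 at 0 min, 3586, 3330 and 3171 at 1 h and 3985, 3609 and 4169 at 16 h. Its 1 h libraries overlapped with those at 0 min, while all 16 h libraries lay above all at 1 h (0.22 ± 0.08, adjusted p = 0.0324).

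Ppat stood at 3026, 2561 and 2992 at 16 h, overlapping with 1 h (0.01 ± 0.07, adjusted p = 0.965). The call of Impdh2 from 1 h to 16 h ended without further scaling (0.0823), on the RPKM scale and with no variance trend (0.055), as well as without replicate 1 or 3 at 16 h or replicate 2 or 3 at 1 h (0.0772 to 0.147). With scaling by library sums the count of members higher in labelled exons was 4.

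Paics differed from its neighbour Ppat. Its labelled introns were 3644, 3565 and 3101 at 0 min, 4615, 4059 and 4470 at 20 min, and 3402, 3128 and 3197 at 1 h. The 20 min libraries lay above those of the other 2 times, and those at 1 h were back within the 0 min range. Labelled exons of Paics passed the test for a rise at none of the 10 later times. They were 4119, 3853 and 4067 at 0 min and 3732, 3217 and 3703 at 4 h. The 4 h values lay below all 0 min libraries, a change of -0.18 ± 0.07 (adjusted p = 0.0496). This fall ended as a call with only the 2 times compared (0.0615), with no variance trend (0.069), and without replicate 2 at 4 h (0.302) or replicate 1 or 3 at 0 min (0.13 and 0.119).

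The ratio of Ppat to Paics was therefore followed within each library. In labelled exons its log2 value went from -1.26 ± 0.13 at 0 min to -0.52 ± 0.08 at 1 h and -0.21 ± 0.05 at 4 h (mean ± SD, n = 3), and in labelled introns from 0.77 ± 0.05 to 1.82 ± 0.08 at 1 h. The ranges at 0 min and at these times did not overlap (exact permutation test, two-sided, p = 0.1 for each, the smallest that 3 against 3 libraries allow, so that no such test could pass). Reads of the 272 shared bases, if counted without strand, would enter both genes, and their share of the exon values is not known from the tables.

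**Figure D3:**
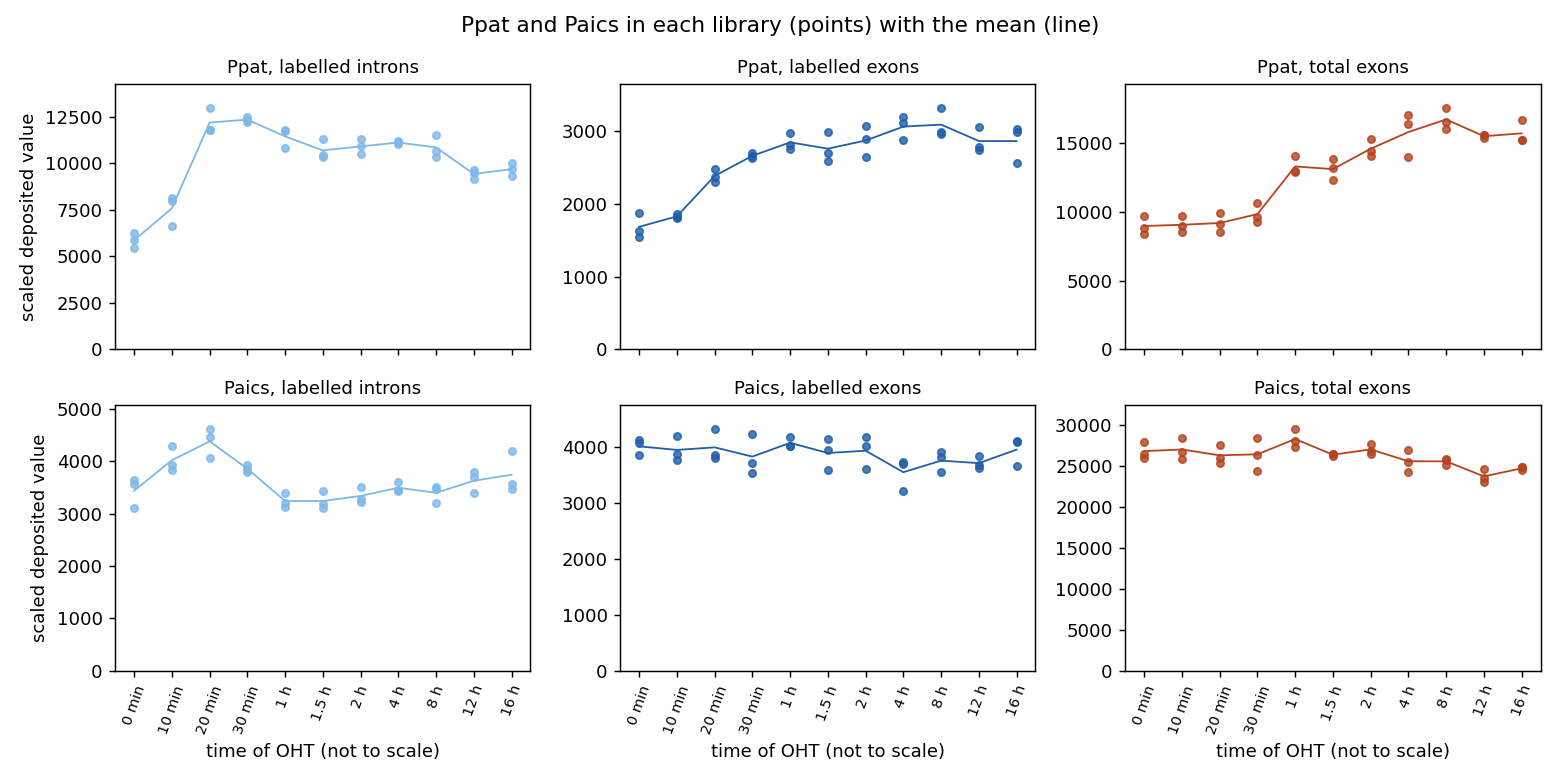
Scaled deposited values of Ppat (top) and Paics (bottom) in each library, with the mean as a line, in labelled introns, labelled exons and total exons against the time of OHT as evenly spaced categories. Ppat rises within 20 min in labelled introns and from 1 h in total exons. Labelled introns of Paics lie above 0 min at 10, 20 and 30 min, and its exons show no rise.

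The total RNA pool changed later. At 1 h Ppat and Gmps, or 2 of 9, were up in total exons and 0 down, against 5.23% of 11486 genes up and 3.47% down. Total exons of Ppat were 9688, 8798 and 8423 at 0 min, 10655, 9612 and 9241 at 30 min and 12947, 12930 and 14033 at 1 h. The 30 min libraries still overlapped with 0 min, and those at 1 h lay above both (0.57 ± 0.07 at 1 h, adjusted p = 2.13e-06). The call of Gmps at 1 h (0.15 ± 0.05, adjusted p = 0.0469) ended with library-sum scaling (0.0914), with no further scaling (0.178), on the RPKM scale, with only the 2 times compared (0.129) and with no variance trend (0.0527). It also ended without replicate 2 or 3 at 1 h or any replicate at 0 min (0.0508 to 0.26).

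At 4 h, 5 of 9 were up in total exons (Ppat, Adsl, Gmps, Impdh1 and Adss) and 0 down, against 19.7% up and 19.5% down of all genes. In this comparison same-numbered libraries deviated together (correlations of 0.178, 0.186 and 0.123), and the fit with the replicate block called 6 up, adding Gart (0.13, adjusted p = 0.029), which was not called without the block (0.0636). Gart was also called without replicate 2 at 4 h (0.0177). At 12 h, a time chosen after the values were seen, 8 of 9 were up and 1, Paics, down, against 27.4% and 29.6%. At 16 h, 7 of 9 were up and 0 down, against 26.9% and 29%. Ppat ended at 15260, 15222 and 16659 (0.81 ± 0.07, adjusted p = 9.45e-11), 1.75-fold the 0 min level. Adsl went from 7883, 7205 and 7332 to 11807, 11235 and 11731, with no overlap (0.63 ± 0.06, adjusted p = 3.15e-10). Gmps, the last enzyme to GMP, went from 15519, 14740 and 14983 to 19749, 20607 and 21505, also with no overlap (0.45 ± 0.05). Smaller rises were called for Impdh2 (0.30 ± 0.07), Gart (0.27 ± 0.06) and Adss (0.17 ± 0.06), and Atic had a change of 0.13 ± 0.06 (adjusted p = 0.0633). Atic was called with scaling by the median of ratios (0.0499) and by library sums (0.0128). It was also called with only the 2 times compared (0.0465) and with the replicate block (0.0286).

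The level of Paics in the total pool was 27926, 25920 and 26417 at 0 min and 23439, 24625 and 22996 at 12 h. All 12 h libraries were lower, by a change of -0.18 ± 0.05 (adjusted p = 0.00413), and at 16 h, with 24427, 24766 and 24784, the change was -0.12 ± 0.05 (adjusted p = 0.0512). The 12 h fall held in every alternative. The call of Adss in total exons at 4 h ended without further scaling (0.207), on the RPKM scale, with only the 2 times compared (0.062), and without replicate 1 or 3 at 4 h or replicate 2 or 3 at 0 min (0.0626 to 0.0999), and its call at 16 h ended without replicate 3 at 16 h or at 0 min (0.0906 and 0.0746). At 12 h the calls of Atic and Adss ended without further scaling (0.0765 and 0.0605), on the RPKM scale, and without replicate 2 at 12 h (0.0873 and 0.0782) or replicate 3 at 0 min (0.0678 and 0.0725).

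Introns of total RNA, which hold unspliced transcripts of any age, had 7 of 9 up and 0 down at 4 h (against 20.3% of 11474 genes up and 19.5% down) and 4 of 9 up and 0 down at 16 h (against 21.4% and 19.8%). At 16 h the 4 were Ppat (0.88 ± 0.08), Adsl (0.53 ± 0.08), Impdh2 (0.37 ± 0.10) and Gart (0.21 ± 0.07). Total introns of Paics were first higher and then lower. Their means were 1264 at 0 min, 1438 at 20 min, 1015 at 1.5 h, 1063 at 12 h and 1272 at 16 h. All libraries at 20 min lay above those at 0 min. All libraries at 1.5 h, 2 h, 8 h and 12 h lay below those at 0 min. The call of Impdh1 at 4 h (0.32 ± 0.12) ended with scaling by library sums (0.0599), with only the 2 times compared (0.107) and without replicate 1 or 3 at 4 h or replicate 2 or 3 at 0 min (0.0661 to 0.237). That of Gart ended at 4 h without replicate 1 at 4 h (0.0698) and at 16 h without replicate 1 at 16 h or replicate 3 at 0 min (0.0563 and 0.083). Gmps, not called at 16 h, was called there with scaling by library sums (0.0112) and on both RPKM scales (0.0233 and 0.0219).

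The genes of the branches from IMP differed in shape. Impdh1, the less abundant of the IMP dehydrogenase genes, had labelled introns of 301, 331 and 308 at 0 min, 551, 546 and 530 at 1 h, and 338, 301 and 306 at 16 h. All 1 h libraries lay above the rest (0.79 ± 0.09, adjusted p = 2.48e-08), and the 16 h libraries overlapped with 0 min (0.01 ± 0.09, adjusted p = 0.946), with a fall from 1 h to 16 h of -0.78 ± 0.09 (adjusted p = 4.3e-08). Its labelled exons were 417, 317 and 381 at 0 min, 521, 538 and 538 at 4 h, and 458, 472 and 530 at 16 h. Both later groups lay above 0 min (0.53 ± 0.11 and 0.39 ± 0.11). Total exons of Impdh1 went from 1113, 1093 and 1196 to 1680, 1460 and 1750 at 16 h, again with no overlap (0.52 ± 0.08, adjusted p = 2.28e-06).

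Impdh2, the abundant IMP dehydrogenase gene, changed later and less than Impdh1 in total exons, a difference between the genes that no model tested. Its total exons were 25462, 22113 and 23840 at 0 min and 30114, 28179 and 29434 at 16 h, with no overlap. Within libraries, the log2 ratio of Impdh1 to Impdh2 in total exons was -4.39 ± 0.11 at 0 min and -4.17 ± 0.10 at 16 h (mean ± SD, n = 3), with ranges that did not overlap (exact permutation test, two-sided, p = 0.1, the smallest possible). The mean ratio moved the other way in total introns, from -1.06 ± 0.21 to -1.47 ± 0.26 (exact permutation p = 0.1). The ranges were barely apart, with a lowest value of -1.303 at 0 min and a highest of -1.310 at 16 h. In total introns Impdh2 rose and Impdh1 did not pass the test (-0.04 ± 0.12, adjusted p = 0.82). Without replicate 2 at 16 h the Impdh1 change was 0.11. In labelled introns the ratio changed by -0.17 at 16 h and in labelled exons by 0.06. Both ranges overlapped with 0 min (exact permutation p = 0.3 and 0.6). Earlier the ratio had risen in newly made RNA. At 1 h the change was 0.70 in labelled introns and 0.26 in labelled exons. Both ranges lay apart from 0 min (exact permutation p = 0.1 for each). At 4 h labelled exons still differed by 0.38, with ranges apart (exact permutation p = 0.1). Labelled introns then differed by 0.13, with overlapping ranges (exact permutation p = 0.4). Adss, the entry to the AMP branch, had labelled introns of 6414, 6884 and 5594 at 0 min, 9067, 7858 and 8326 at 30 min, and 6588, 6245 and 6677 at 16 h. All 30 min libraries were higher than those at 0 min (0.42 ± 0.08), and the 16 h libraries lay within the 0 min range (0.05 ± 0.08, and -0.31 ± 0.08 from 1 h to 16 h, adjusted p = 0.00255).

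**Figure D4:**
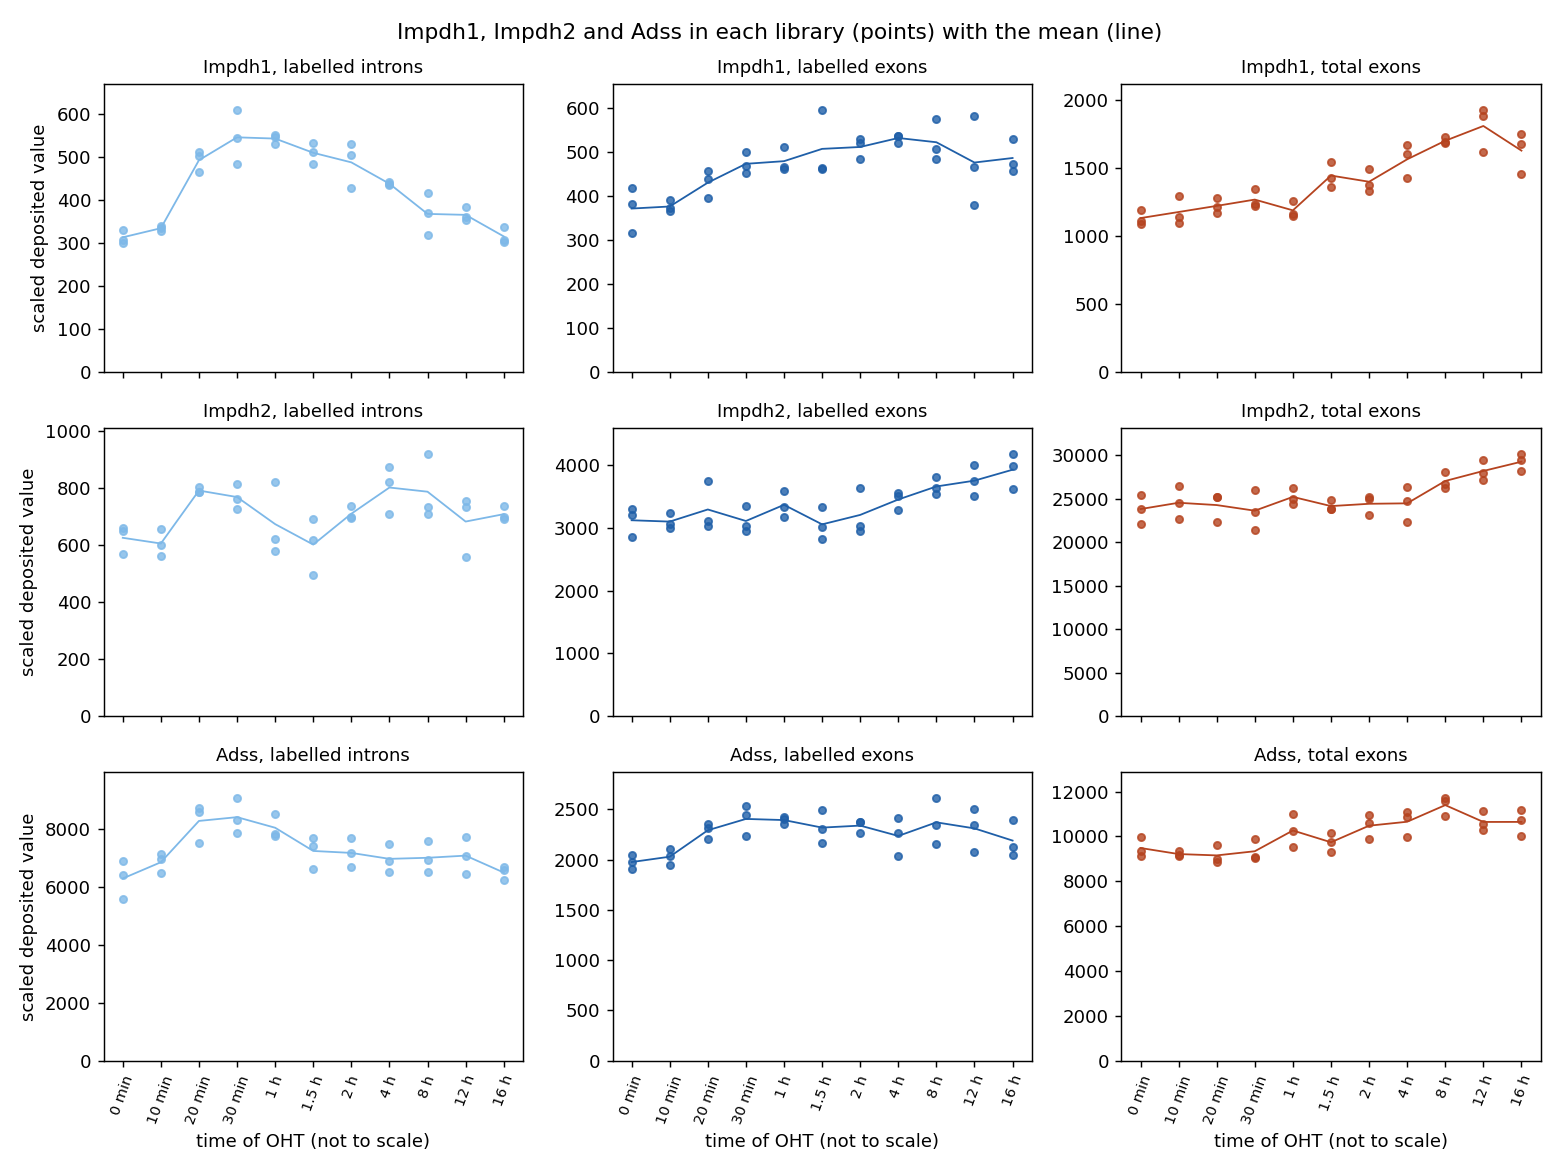
Scaled deposited values of Impdh1, Impdh2 and Adss in each library, with the mean as a line, in labelled introns, labelled exons and total exons against the time of OHT as evenly spaced categories. Labelled introns of Impdh1 and Adss are highest near 30 min and 1 h and are back at the 0 min level by 16 h, while the mean of total exons is highest at 12 h for Impdh1 and at 16 h for Impdh2.

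The ratio of introns to exons within each labelled library was tested because it compares unspliced with all newly made RNA. At 30 min the ratio was higher in 4 of 9 genes, Ppat (0.41 ± 0.07, adjusted p = 0.00026), Gart (0.24 ± 0.07), Gmps (0.17 ± 0.05) and Impdh1 (0.44 ± 0.15), and lower in 0, against 9.3% of 11481 genes up and 5.4% down. Only the call of Ppat held in every alternative. Those of Gart, Gmps and Impdh1 ended with scaling by library sums (0.128, 0.278 and 0.1), with only the 2 times compared (0.218, 0.141 and 0.148) and with RPKM plus 1 (0.116, 0.159 and 0.621), the count then being 1. They also ended without single libraries: Gart without replicate 3 at 30 min or at 0 min (0.101 and 0.169), Gmps without replicate 1 or 3 at 30 min or any replicate at 0 min (0.0517 to 0.107), and Impdh1 without replicate 2 or 3 at 30 min or replicate 1 or 3 at 0 min (0.138 to 0.218). At 4 h and 16 h limma called 0 of 9 in either direction (2 and 1 at an unadjusted p under 0.05), against 1.38% and 0.775% of all genes.

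Labelled and total exons were compared directly, as the difference of their changes over all 66 libraries. At 30 min Ppat, whose total pool had not yet passed the test, differed by 0.53 ± 0.10 (adjusted p = 0.00112). This time was outside the plan for the comparison, the share of all genes called was not counted, and no alternative was run. At 4 h and 16 h limma called 0 of 9 (1 and 0 at an unadjusted p under 0.05), against 0.0611% and 0.332% of 11463 genes in either direction. The largest difference at 4 h was that of Adsl, 0.21 ± 0.09 (95% interval 0.02 to 0.40, adjusted p = 0.675). For Ppat the interval of the difference was -0.16 to 0.26 at 4 h and -0.25 to 0.16 at 16 h, so differences inside these bounds are compatible with the data.

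Related genes were counted from lists of named enzymes. Of 5 measured genes for PRPP supply and the remaining de novo step, 0 rose and 1, Prpsap2, fell in labelled exons at 1 h, and 4 rose and 0 fell at 16 h (median 0.44). Pfas, the one de novo enzyme outside the 9, changed by 0.12 ± 0.07 at 1 h (adjusted p = 0.213) and rose by 0.47 ± 0.07 at 16 h (adjusted p = 3.89e-07), and the PRPP synthetase gene Prps2 rose by 0.56 ± 0.11 at 16 h. Of 8 measured genes for the supply of formyl tetrahydrofolate, a carbon donor of the ring, 5 rose and 0 fell at 1 h (median 0.29). At 16 h, 5 rose and 1 fell (median 0.29). The mitochondrial gene Mthfd1l rose by 0.49 ± 0.06 at 1 h and by 0.79 ± 0.06 at 16 h, and Aldh1l2, which consumes formyl tetrahydrofolate, fell by 0.62 at 16 h.

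Of 17 measured genes of purine salvage and turnover, 2 rose and 2 fell at 1 h (median 0.10), and 4 rose and 4 fell at 16 h (median 0.09). Adk, adenosine kinase, rose by 0.98 ± 0.08 at 16 h, and Ampd3, an AMP deaminase, fell by 1.01. Of 6 purine nucleotide kinase genes, 2 rose and 0 fell at 1 h (median 0.16), and 2 rose and 1, Ak1, fell at 16 h (median 0.02). Of 5 pyrimidine de novo genes, 3 rose and 0 fell at 1 h (median 0.20), and 4 rose and 1, Ctps2, fell at 16 h (median 0.21). Cad, which starts that pathway, rose by 0.25 ± 0.08 at 1 h and 0.69 ± 0.08 at 16 h. The median over all genes was 0.01 at both times. Of all genes, 13.5% rose and 9.77% fell at 1 h, and 22.5% rose and 21.7% fell at 16 h. The salvage and turnover counts at 16 h were near these shares in both directions.

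As a description, the labelled exon values of the members were correlated over the 33 labelled libraries, which share times and scaling. Among the members other than Paics, Pearson's r was highest for Gart with Adsl (0.83) and lowest for Impdh2 with Adss (0.22). Paics had r between -0.45 (with Adsl) and 0.18 (with Adss). Over 10010 genes with a mean of at least 50, the genes most like Ppat were Fzd4, Lsg1 and Unc13a (r = 0.95, 0.95 and 0.95), those most like Gart were Bri3bp, Pdxk and Atf6b (0.95, 0.95 and 0.94), and those most like Adsl were Cstf1, Rangap1 and Heatr6 (0.96, 0.96 and 0.96). For Gmps they included Eif4e and Fmr1 (0.95 and 0.95), for Atic Ube2g2, Tmem115 and Elac2 (0.91, 0.89 and 0.88), for Impdh1 Nol6, Slc7a5 and Fbxo31 (0.86, 0.86 and 0.86) and for Impdh2 Nudc, Gpn3 and Asna1 (0.90, 0.89 and 0.88). Adss was most like Fam208b, Ivns1abp and Nup153 (0.88, 0.84 and 0.83), and Paics most like Eef1a1, Psma4 and Tceb1 (0.80, 0.79 and 0.78). No gene was listed for more than 1 member, and the best likeness was lowest for Paics.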

How the data were processed

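Values were taken from 8 tables the authors deposited for 66 libraries, exon and intron apart. The submitters' processing notes name TopHat2 2.0.8, TopHat and mm9, without roles. How reads were counted, on which annotation and with or without strand is not given. The tables the authors deposited under the name counts hold whole numbers. These values are a score as deposited, rescaled by a step not given in the sources, and not raw counts, since in 13 of 66 libraries some whole numbers were nearly missing (under 0.2 of the frequency of their neighbours), so a count model, allowed for in the design, was not used. The RPKM values the authors deposited equal these values times 1 constant per gene (largest deviation 0.982% between libraries).

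Libraries of a table were brought to one scale by a trimmed mean of log ratios (a share of 0.3 of log ratios and 0.05 of levels left out at each end). Genes reaching 10 in 3 or more libraries entered, and log2(value + 1) was fitted with limma 3.58.1 in R 4.3.3 (1 mean per time, 33 libraries per table, variance trend, two-sided, Benjamini-Hochberg over all genes kept, adjusted p under 0.05). Changes on this scale are understated for genes with low values. The intron to exon ratio used a pseudocount of 2. All times share the same 0 min libraries. The functions were tested on simulated data. Transcripts were aligned with minimap2 2.31-r1302, and figures were drawn with matplotlib 3.10.9.

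All 9 members are named. Of the other lists, the called genes with the 3 smallest p and the 2 largest uncalled changes in a comparison could be named, and for each member the 3 most correlated genes, of which 1 is not reported here. Prpsap2, Aldh1l2 and Ctps2 are named as the single genes of a list that fell, chosen after their values were seen. Members and lists were chosen with earlier results of these data known, and labelled introns at 20 min and total exons at 12 h were added after values were seen. Alternatives were other scalings, pseudocounts, filters, the RPKM tables, only the times compared, no variance trend, a replicate block and leaving out each library.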

Additional observations from a re-analysis of the deposited data

How the results depend on the processing

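No called change of a member reversed. Of 2241 member values under other settings, 2076 kept their call (or, uncalled, moved by less than 1 standard error), 86 lost it, 28 gained one and 51 moved further, and 33 uncalled values changed sign. Leaving out 1 library gave 1132, 81, 9 and 20 of 1242, with 70 changes of sign. Without further scaling, with RPKM plus 0.1 and with RPKM plus 1, the members up in labelled exons were 1 at 30 min, 4 at 1 h and 1 at 16 h against 1 h. Scaling by library sums gave 4 at 16 h against 1 h, and no variance trend 1. Members down in labelled exons at 4 h were 0 with only the 2 times compared and with no variance trend. Members up in total exons at 1 h were 1 with library sums, no further scaling, both RPKM settings, only the 2 times compared and no variance trend. Members up in the intron to exon ratio at 30 min were 1 with library sums, both RPKM settings and only the 2 times compared, and 2 without further scaling. Total exons at 16 h had 1 member down, Paics, with a minimum of 50 in 3 libraries and with the replicate block. Leaving out 1 library gave 1 to 3 up in labelled exons at 30 min, 4 to 7 at 1 h, 1 to 2 at 16 h against 1 h, 0 to 1 down at 4 h, 1 to 2 up in total exons at 1 h, 0 to 1 down at 16 h, and 1 to 4 up in the ratio at 30 min. The cause was not tested. Library sums moved the median of all genes by -0.10 in labelled introns at 30 min and by 0.11 at 16 h, and the ratio at 30 min moved by 0.11 without further scaling and 0.10 with RPKM plus 0.1.

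Replicate numbers are shared across times. Same-numbered libraries deviated together (all 3 correlations over 0.1) in 1 of 15 comparisons, total exons at 4 h (correlations -0.25 to 0.25 over all). The main fits did not take the numbers as pairs, there or elsewhere, and the replicate block was run as an alternative. In total exons at 4 h the block added the call of Gart and gave 6 members up. Of all member counts, the replicate block moved by over 1.5 times only that of members down in total exons at 16 h, where it called Paics (limma, adjusted p = 0.0429). True read depth is unknown, so no limit from counting is given.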
